A study of Brassica napus with 6 samples.

Results

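The endocycle switch genes are taken here as 8 genes with a part in the change by which a plant cell stops dividing but goes on copying its DNA. They were taken as every Brassica napus gene whose deposited Arabidopsis match was 1 of 8 codes: AT5G04470 (SIM), AT3G10525 (SMR1), AT2G23430 (KRP1), AT3G50630 (KRP2), AT4G22910 (CCS52A1), AT4G11920 (CCS52A2), AT3G12280 (RBR1) and AT1G48380 (RHL1). By this rule 42 of the 145279 genes in the table were members, which are called copies here. Of these, 17 carry an A-chromosome identifier, 23 a C-chromosome identifier and 2 a scaffold identifier. The identifiers give the chromosome and the order along it, while the genome build is not given in the sources used here and no coordinates are printed.

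The study set a hairy line, DH6-47, with about 600 trichomes on a leaf, against a glabrous line, DH6-110. Both are near-isogenic doubled haploids, bred from Quantum/LG3260 and CN113136, so each genotype is represented by 1 inbred line and a difference between the lines cannot be assigned to any 1 locus. Poly-A RNA came from the third leaf, taken whole and very young, 1 leaf to a sample, from plants kept in a 16 h day and 8 h night. The labels list 3 leaves per line. Values of replicates 1 and 3 were used, which sets 2 hairy leaves against 2 glabrous ones throughout, and replicate 2 was not analysed here.

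An Arabidopsis leaf hair is a single epidermal cell that replaces mitosis by repeated rounds of DNA replication, the endocycle, while it grows and branches. The switch lowers the activity of mitotic cyclin-dependent kinases (CDKs). SIAMESE (SIM) and its relatives, and the Kip-related proteins (KRPs), bind and inhibit CDK-cyclin complexes. CCS52 proteins direct the anaphase-promoting complex (APC/C), a ubiquitin ligase, to destroy mitotic cyclins. RBR1, the retinoblastoma-related protein, holds E2F transcription factors inactive, and RHL1 belongs to the DNA topoisomerase VI complex that untangles the copied chromosomes. In Arabidopsis, loss of SIM gives trichomes of several cells, and loss of RHL1 ends the endocycle early.

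Values are TPM, the usual transcript level scaled to transcript length and to the leaf's total, summed over the transcript models of a gene. Read depth is unknown from TPM. Each leaf had between 39919 and 43209 genes at 1 TPM or more. Log2 levels correlated across genes at 0.948 between the hairy leaves, at 0.909 between the glabrous leaves and at 0.747 to 0.800 between lines. The 5 mesophyll marker genes, which mark photosynthetic leaf cells, totalled 4211 to 5079 TPM in hairy and 6739 to 9302 TPM in glabrous leaves. Of their 18 tested copies, 0 were called higher and 1 lower. The mesophyll marker RBCS1A was listed at 0 in both hairy leaves and at 2.03 and 0 TPM in glabrous leaves. The 4 trichome markers (GL1, GL2, GL3 and TTG2) totalled 22.6 to 28.5 TPM in the hairy leaves and 11.5 to 15.2 TPM in glabrous leaves, with 1 of 7 tested copies higher. The 4 markers of dividing cells totalled 493 to 595 TPM and 474 to 494 TPM (1 of 17 lower), the 5 stomatal lineage markers 78.2 to 105 TPM and 116 to 164 TPM (1 of 13 lower), and the 3 xylem markers 25.4 to 32.7 TPM and 39.9 to 99.6 TPM (1 of 9 lower). The meristem marker KNAT1 and the stomatal marker EPF1 were listed at 0 in all 4 leaves, and STM reached 0.379 TPM. The totals of the trichome, mesophyll, stomatal and xylem lists did not overlap between the lines. Within these lists, however, GL1, GL3, RBCS1A, SPCH, FAMA and VND7 did overlap. No single marker gene's total was called, and the part of these cell types in the results that follow was not tested. In a whole leaf, fewer cells of a type and less RNA per cell cannot be told apart.

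Of the 42 copies, 29 reached 1 TPM in at least 2 leaves and were tested. The test was limma on log2(TPM + 1) over all 44247 genes that passed this filter, and a copy was called at a Benjamini-Hochberg adjusted p under 0.05. Of the 29, 2 copies were called higher in the hairy line, 1 of RBR1 and 1 of SIM, against a background of 5.24% of all genes. Another, 1 copy of SMR1, was called lower, against a background of 4.48%. Each of the 3 passed the filter through 1 line only, the line in which it was high, so their share among the tested copies carries no weight of its own. The other 26 copies were not called: their differences ran from -1.12 to 0.24 on the log2 scale, and their lowest adjusted p was 0.275. At an unadjusted p under 0.05 there were 5 copies, the 3 called ones among them, where 17.4% of all tested genes had such a p. In 2 copies both hairy leaves were above both glabrous leaves, where 21.4% of all tested genes were so placed, in 8 both were below, against 17.4% of all genes, and in 19 the lines overlapped. The median difference of the 29 copies was -0.22, beside 0.03 for all tested genes, and the median standard error (SE) was 0.48 beside 0.46.

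**Figure D1:**
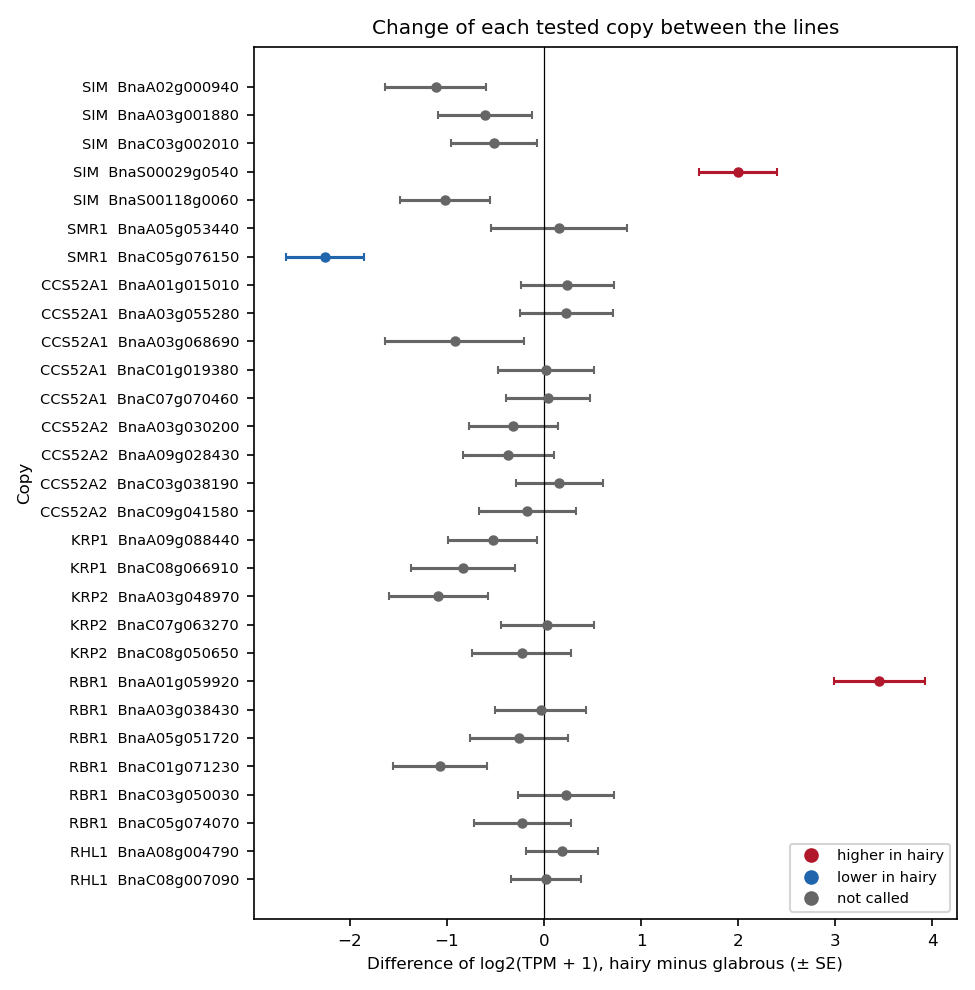
Difference of log2(TPM + 1) between the lines, hairy minus glabrous, for the 29 tested copies; bars are 1 SE from the limma fit. Points to the right of 0 were higher in the hairy line: 2 copies (RBR1 at 3.45 and SIM at 2.00) and 1 copy (SMR1 at -2.26) stand apart, and the other 26 lie between -1.12 and 0.24.

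SIM, the CDK inhibitor first found through its trichome mutant, had 5 copies, and all of them were tested. The copy BnaS00029g0540.4DH, on an unplaced scaffold, had 2.46 and 3.64 TPM in the hairy leaves and was listed at 0 in both glabrous leaves. This was a difference of 2.00 on the log2(TPM + 1) scale (SE 0.40, limma adjusted p = 0.0062), and no fold is given against a line listed at 0. The call depended on single leaves, and was lost without either hairy leaf or without glabrous replicate 1. The difference was 2.21 without hairy replicate 1 and 1.79 without hairy replicate 3. Without either glabrous leaf it was again 2.00, which is fixed because both glabrous leaves were listed at 0. The other 4 copies had lower means in the hairy line, and none was called. BnaA02g000940.4DH had 2.08 and 0.649 TPM in hairy and 5.68 and 2.58 TPM in glabrous leaves, so the lines did not overlap (difference -1.12, SE 0.52). BnaS00118g0060.4DH, on another scaffold, had 1.93 and 1.39 TPM in hairy and 4.85 and 3.90 TPM in glabrous leaves (difference -1.02, SE 0.47), again with no overlap. BnaA03g001880.4DH stood at 0.527 and 2.26 TPM against 2.35 and 2.45 TPM, where 1 hairy leaf was close to the glabrous ones. BnaC03g002010.4DH had 1.28 and 0.663 TPM against 2.49 and 1.22 TPM, and its lines overlapped. Added up, the SIM copies gave 8.27 and 8.60 TPM in hairy and 15.4 and 10.1 TPM in glabrous leaves, a difference of -0.52 (SE 0.51) that was not called and that ran from -0.79 to -0.24 without 1 leaf. The hairy line thus held 1 SIM copy that was listed at 0 in the glabrous line. Both hairy SIM totals were below both glabrous totals, where 29.7% of all totals were without overlap in either direction.

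SMR1, a SIM relative that in Arabidopsis promotes the endocycle in the epidermis of leaves and sepals, had 6 copies, of which 2 were tested. BnaC05g076150.4DH was listed at 0 in both hairy leaves and had 3.93 and 3.64 TPM in glabrous leaves (difference -2.26, SE 0.40, limma adjusted p = 0.00291). The call was lost without either hairy leaf. The difference was then again -2.26, which is fixed because both hairy leaves were listed at 0. It was -2.21 without glabrous replicate 1 and -2.30 without glabrous replicate 3. BnaA05g053440.4DH had 0.769 and 8.86 TPM in the hairy leaves and 3.65 and 2.01 TPM in glabrous leaves. The hairy leaves of this copy enclosed the glabrous ones, and its difference of 0.16 had an SE of 0.70, the hairy replicates being further apart than the lines. Among the 4 untested copies, BnaA01g061360.4DH had 0.741 and 0.577 TPM in the hairy leaves and was listed at 0 in the glabrous ones. BnaC01g073690.4DH had 0 and 0.992 TPM against 2.21 and 0.309 TPM, the highest single value of any untested copy. The remaining 2, BnaA03g037460.4DH and BnaC03g048230.4DH, stayed under 0.5 TPM in every leaf. The SMR1 total was 1.93 and 10.8 TPM in hairy and 10.3 and 6.28 TPM in glabrous leaves (difference -0.63, SE 0.65), and its direction followed hairy replicate 1: without that leaf the difference was 0.38.

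KRP1 and KRP2 encode CDK inhibitors of the other plant family. KRP1 had 2 copies, both tested and neither called. BnaA09g088440.4DH had 1.08 and 1.77 TPM in hairy and 3.14 and 1.88 TPM in glabrous leaves, with a narrow gap between the lines (difference -0.53, SE 0.46). BnaC08g066910.4DH had 0.254 and 2.49 TPM against 3.30 and 2.21 TPM, overlapping (difference -0.83, SE 0.54). KRP2 had 4 copies, of which 3 were tested and none was called. BnaA03g048970.4DH had 1.16 and 0.30 TPM in hairy and 1.29 and 4.52 TPM in glabrous leaves (difference -1.09, SE 0.51, limma adjusted p = 0.313). BnaC07g063270.4DH had 1.03 and 1.46 TPM against 0.417 and 2.35 TPM, and BnaC08g050650.4DH, the most abundant KRP2 copy, 3.18 and 5.64 TPM against 3.81 and 6.92 TPM. In both of these the lines overlapped. Of the TPM of BnaC08g050650.4DH, 73.7 to 92.6% in a leaf came from a transcript model that does not itself carry the KRP2 code. The untested BnaA09g074910.4DH was listed at 0 in the hairy leaves and had 0.434 and 0.255 TPM in the glabrous ones. The KRP1 total was 2.79 ± 2.07 TPM in hairy and 5.27 ± 1.67 TPM in glabrous leaves, and the KRP2 total 6.38 ± 1.43 and 10.0 ± 5.72 TPM (SD, n = 2 each).

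**Figure D2:**
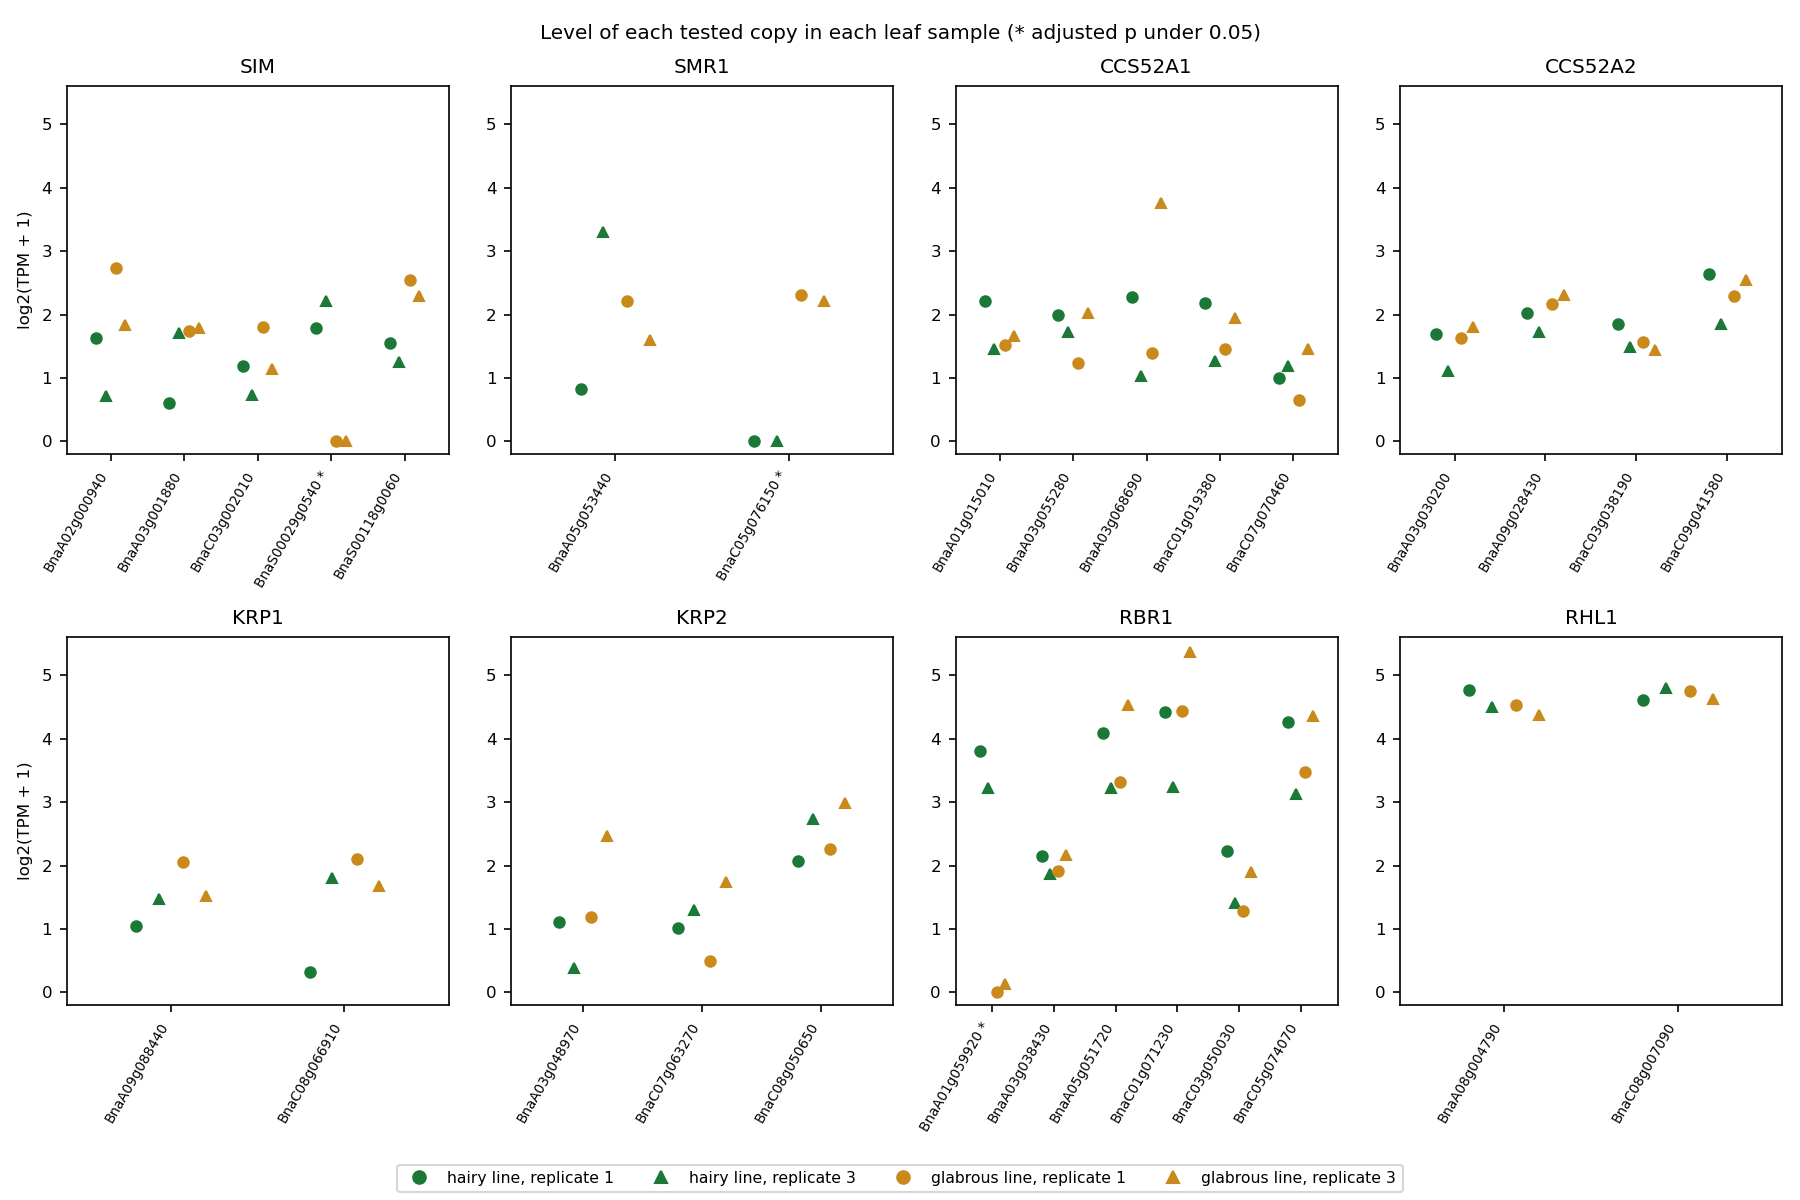
Level of each of the 29 tested copies, as log2(TPM + 1), in each leaf sample; green marks are hairy and ochre marks glabrous leaves, circles replicate 1 and triangles replicate 3. An asterisk marks the 3 called copies, in which the leaves of 1 line sit at or near 0.

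CCS52A1 and CCS52A2, the APC/C activators, had 9 and 4 copies, and none of the 9 tested copies was called. In CCS52A1, 5 copies were tested, 3 were listed at 0 in all leaves, and BnaC03g084890.4DH was above 0 only in glabrous replicate 3, at 0.395 TPM. BnaA03g068690.4DH, which had the highest mean over the 4 leaves but not in the hairy line, had 3.85 and 1.05 TPM in hairy and 1.63 and 12.5 TPM in glabrous leaves. Its high value was that of a single glabrous leaf, and its difference of -0.92 had an SE of 0.72. BnaA01g015010.4DH had 3.62 and 1.75 TPM against 1.87 and 2.17 TPM, and BnaC01g019380.4DH 3.54 and 1.42 TPM against 1.75 and 2.86 TPM. BnaA03g055280.4DH had 2.98 and 2.32 TPM against 1.35 and 3.07 TPM, and BnaC07g070460.4DH 0.992 and 1.29 TPM against 0.574 and 1.74 TPM. The lines overlapped in all 5. The CCS52A1 total was 15.0 and 7.83 TPM in hairy and 7.18 and 22.8 TPM in glabrous leaves, so each line held 1 high and 1 low leaf.

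All 4 CCS52A2 copies were tested. BnaC09g041580.4DH had 5.24 and 2.62 TPM in hairy and 3.90 and 4.83 TPM in glabrous leaves. BnaA09g028430.4DH had 3.06 and 2.30 TPM against 3.50 and 3.96 TPM, the 1 CCS52A2 copy whose lines did not overlap (difference -0.37, SE 0.47, limma adjusted p = 0.938). BnaA03g030200.4DH stood at 2.22 and 1.17 TPM against 2.10 and 2.48 TPM, and BnaC03g038190.4DH at 2.60 and 1.80 TPM against 1.97 and 1.72 TPM. The total was 10.50 ± 3.70 TPM in hairy and 12.2 ± 1.08 TPM in glabrous leaves (SD, n = 2 each).

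RBR1 had the highest mean total of the 8 genes in either line and 7 copies, of which 6 were tested. The copy on chromosome A01, BnaA01g059920.4DH, had 13.0 and 8.36 TPM in the hairy leaves and 0 and 0.0928 TPM in glabrous leaves. Its difference was 3.45 (SE 0.47, limma adjusted p = 0.00047), and its adjusted p stayed under 0.05 without any 1 leaf, at 0.00341 to 0.0279. The C01 copy, BnaC01g071230.4DH, went the other way, with 20.4 and 8.45 TPM in hairy and 20.7 and 40.0 TPM in glabrous leaves. The lines did not overlap, but by a margin smaller than the distance between replicates, and the difference of -1.07 (SE 0.48) had a limma adjusted p of 0.275. On A05 and C05, BnaA05g051720.4DH had 16.0 and 8.36 TPM against 8.92 and 22.1 TPM and BnaC05g074070.4DH had 18.2 and 7.71 TPM against 10.1 and 19.5 TPM. The copies on A03 and C03 were below these in every leaf, BnaA03g038430.4DH at 3.44 and 2.64 TPM against 2.76 and 3.49 TPM and BnaC03g050030.4DH at 3.68 and 1.66 TPM against 1.44 and 2.73 TPM. In these 4 copies the lines overlapped. BnaC02g064890.4DH was listed at 0 in every leaf.

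The RBR1 total was 74.7 and 37.2 TPM in hairy and 43.9 and 88.0 TPM in glabrous leaves, 56.0 ± 26.6 against 65.9 ± 31.2 TPM (SD, n = 2 each). Replicates of a line differed more than the line means did, and the total, unlike the A01 copy, was not higher in the hairy line. All 6 tested RBR1 copies were higher in hairy replicate 1 than in hairy replicate 3, and higher in glabrous replicate 3 than in glabrous replicate 1. This order was also that of 55.5% of all tested genes. It held in 4 of the 5 CCS52A1 copies and 3 of the 4 CCS52A2 copies, and in none of the SIM, SMR1, KRP1 or RHL1 copies.

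RHL1, a component of the topoisomerase VI complex, had 5 copies, and nearly all of its level came from a pair on A08 and C08. BnaA08g004790.4DH had 26.3 and 21.6 TPM in hairy and 22.2 and 19.6 TPM in glabrous leaves. BnaC08g007090.4DH had 23.4 and 26.9 TPM against 26.0 and 23.6 TPM. Both overlapped between the lines, with differences of 0.19 (SE 0.37) and 0.02 (SE 0.36), the smallest errors among the 29 copies. Of the other 3 copies, 2 on C01 were listed at 0 and BnaC05g046500.4DH reached 0.155 TPM in glabrous replicate 3 only. The RHL1 total was 49.2 ± 0.850 TPM in hairy and 45.7 ± 3.41 TPM in glabrous leaves (SD, n = 2 each).

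**Figure D3:**
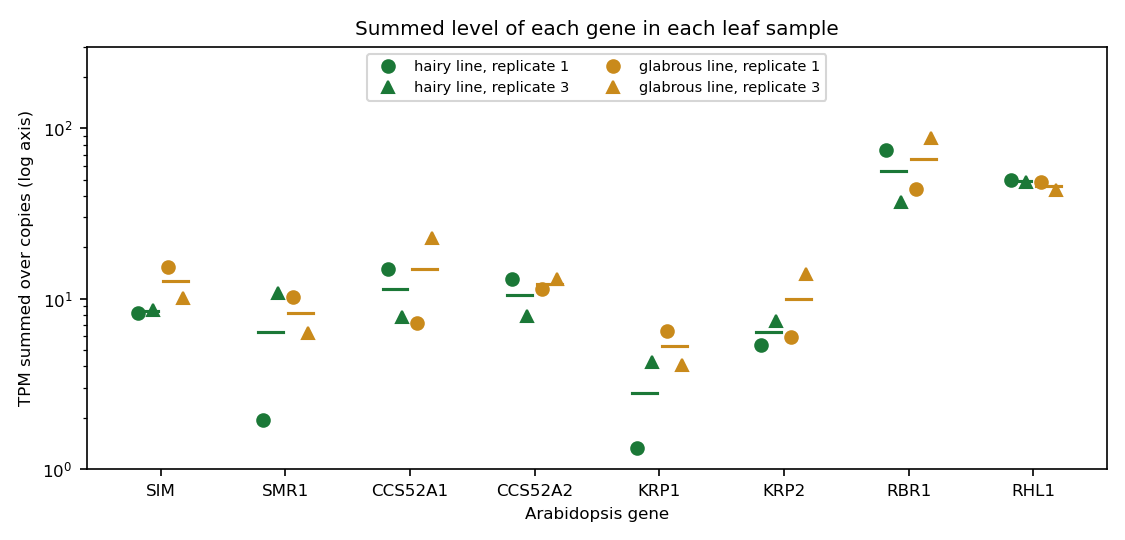
TPM summed over all copies of each gene in each leaf, on a log axis, with a bar at the mean of each line; green marks are hairy and ochre marks glabrous leaves. RBR1 and RHL1 lie above the other 6 genes in every leaf, and the lines overlap or nearly meet in all 8.

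By total, RBR1 (37.2 to 88.0 TPM over the 4 leaves) and RHL1 (43.3 to 49.8 TPM) overlapped each other, and both were above the other 6 genes in every leaf. Those 6, in falling order of their mean, CCS52A1, CCS52A2, SIM, KRP2, SMR1 and KRP1, ran from 1.33 to 22.8 TPM, and each overlapped its neighbours in this order. None of the 8 totals was called by limma over 15754 totals by Arabidopsis code, each adjusted p was 1.0, and 0 of the 8 had an unadjusted p under 0.05. Over all totals, 1.82% were called higher and 0.267% lower in the hairy line. The lines did not overlap in 2 of the 8 totals, SIM (hairy lower) and RHL1 (hairy higher by 1.07 times in the mean), where 29.7% of all totals were without overlap in either direction.

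B. napus carries an A and a C subgenome, so a gene on an A chromosome usually has a corresponding copy, a homeolog, on a C chromosome. Copies were paired where the 20 genes on each side of them shared the most Arabidopsis codes, each being the other's best match with at least 5 codes shared. The RBR1 copies on A01 and C01 formed such a pair, with 18 codes shared. Their joint level was 33.4 and 16.8 TPM in hairy and 20.7 and 40.1 TPM in glabrous leaves, which overlapped, and the A01 copy gave 39.0 and 49.7% of it in the hairy but 0 and 0.231% in the glabrous leaves. In the RBR1 pair on A05 and C05 the A copy gave 46.9 and 52.0% in the hairy and 46.9 and 53.1% in the glabrous leaves. For SMR1, the A05 and C05 copies shared 25 codes, and the A05 copy gave 100% of their level in both hairy leaves and 48.2 and 35.6% in the glabrous leaves. For SIM, the scaffold copy BnaS00029g0540.4DH was paired with BnaA02g000940.4DH on 12 codes, and the A02 copy gave 45.9 and 15.1% in the hairy and 100% in both glabrous leaves. The joint SIM level of this pair was 4.54 and 4.29 TPM in hairy and 5.68 and 2.58 TPM in glabrous leaves, with overlap. Reads of near-identical copies can be counted on either of them, which leaves the split within a pair less certain than its total.

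Genes around the 3 called copies were called in the same direction. Most of these reached the filter of 1 TPM in 2 leaves through 1 line alone, so the counts are bound to the filter and the levels are given beside them. Of the 10 tested genes on each side of the A01 copy of RBR1, 20 of 20 were called higher in the hairy line, with a median level of 11.2 TPM in hairy and 0.0273 TPM in glabrous leaves, and 19 passed the filter through the hairy leaves alone. Around the scaffold copy of SIM, which has only 2 tested genes after it, 12 of 12 were called higher, 10 of which passed through the hairy leaves alone, with medians of 40.2 and 0.0720 TPM. Around the C05 copy of SMR1, 19 of 20 were called lower, with medians of 0.0418 and 6.95 TPM, and 19 passed through the glabrous leaves alone. Without 1 leaf these counts went as low as 15, 8 (without hairy replicate 1) and 6 (without hairy replicate 3; 7 without hairy replicate 1 and 12 without glabrous replicate 3). The partner copies had few called neighbours: 1 lower of 20 near the C01 copy of RBR1, none of 20 near the A02 copy of SIM, and 2 higher of 20 near the A05 copy of SMR1. The median differences of these neighbours were nevertheless on the opposite side to those of the called copy, at -0.69, -0.87 and 0.72 against 3.48, 4.38 and -2.94. Among the other 23 tested copies, 0 to 4 of the neighbours were called in 1 direction.

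**Figure D4:**
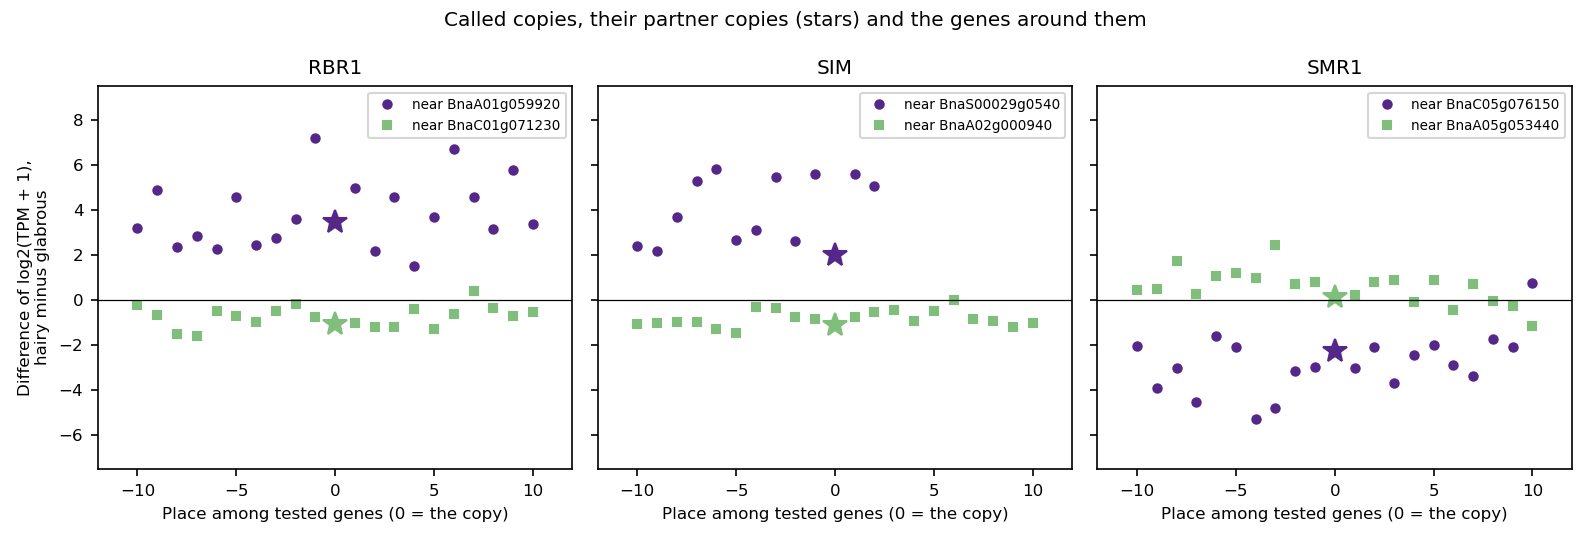
Difference of log2(TPM + 1), hairy minus glabrous, of up to 10 tested genes on each side of the 3 called copies (purple) and of their partner copies (green), by place along the chromosome or scaffold; stars are the copies themselves. The genes near the called copies of RBR1 and SIM lie above 0, those near SMR1 lie below it except the last, and those near the partners lie mostly on the other side.

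RBR1 and SMR1 copies lie on the same chromosomes, which let the stretch between them be read. On A01, 143 genes lie between the RBR1 copy and the untested SMR1 copy BnaA01g061360.4DH, and 49 of them were tested. All 49 were called higher in the hairy line (median levels 10.96 and 0.0562 TPM), and 45 had passed the filter through the hairy leaves alone. Over all 143 genes, 49 had at least 1 TPM in both hairy leaves and 1 in both glabrous leaves. On C01, the corresponding stretch had 1 gene called higher and 6 lower of 68 tested (median difference -0.93). On C05, between the RBR1 copy, which was not called, and the SMR1 copy, 69 of 88 tested genes were called lower and none higher (median levels 0.131 and 8.52 TPM), and 60 of the 88 had passed through the glabrous leaves alone. Over all 211 genes there, 25 had at least 1 TPM in both hairy and 88 in both glabrous leaves. On A05, 14 of 94 were called higher and none lower (median difference 0.92). On A03 and C03, which carry RBR1 and SMR1 copies without a call, 1 of 49 and 3 of 47 were higher, and 0 and 1 were lower. These stretches were chosen after the calls had been seen.

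The scaffold with the called SIM copy was near 0 in the glabrous leaves over most of its length. It holds 61 genes, of which 27 were tested, 25 of them after passing the filter through the hairy leaves alone, and 25 were called higher in hairy leaves and 0 lower. Its summed level was 581 and 534 TPM in hairy and 10.3 and 11.1 TPM in glabrous leaves. Of its genes, 27 had at least 1 TPM in both hairy leaves and 1 in both glabrous leaves. A copy of DPB, the dimerisation partner that E2F factors need to bind DNA, lies on the same scaffold: BnaS00029g0200.4DH had 2.59 and 2.02 TPM in the hairy leaves and was listed at 0 in the glabrous ones (limma adjusted p = 0.0121).

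The share of each total that came from copies with an A-chromosome identifier was also measured. The 2 scaffold copies of SIM count as not A in it, so for SIM it does not show which subgenome supplied the total. For SMR1 this was 91.4 and 87.6% in the hairy and 35.5 and 32.1% in the glabrous leaves, and for RBR1 43.5 and 52.1% against 26.6 and 29.2%. The share was lower in the hairy line for SIM, at 31.6 and 33.8% against 52.3 and 49.5%, for KRP2, at 21.6 and 4.06% against 29.0 and 34.0%, and for CCS52A2, at 40.2 and 44.0% against 48.9 and 49.5%. In these 5 genes the lines did not overlap, and the exact permutation test (two-sided) gave p = 0.333 for each, the smallest that 2 against 2 leaves can give. How often such shares are without overlap among all genes was not counted, so the 5 are not read as a trait of these genes. For CCS52A1, KRP1 and RHL1 the lines overlapped, with exact p-values of 0.667, 1.0 and 1.0. The differences for SMR1 (55.7 percentage points), RBR1 (19.9) and SIM (-18.2) involve the called copies, while none of the CCS52A2 or KRP2 copies was called.

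The 42 copies had 62 transcript models. The authors' deposited table gives a false discovery rate for 51 of them, and 1 was under 0.05, where 4.05% of all transcripts with such a value were. It was model 3 of the A01 copy of RBR1, with a deposited false discovery rate of 0.00645. This model gave 76.8 and 77.4% of the copy's TPM in the hairy leaves. In a limma fit per transcript 34 of the 62 were tested and the same model alone was called (adjusted p = 0.0212). The single model of the scaffold SIM copy had a limma adjusted p of 0.0739, and model 2 of the C05 copy of SMR1 one of 0.0667.

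For each called copy the 3 tested genes with the most similar levels were found by Euclidean distance of log2(TPM + 1) over the 4 leaves, a measure that shares leaves and scale with the test. Nearest to the A01 copy of RBR1 were a copy of AT5G03900, an iron-sulphur cluster gene, on another scaffold (distance 0.0999), the C08 copy of TPX2, a spindle assembly factor (0.123), and the A01 copy of the transcription factor gene BZIP28 (0.131). The scaffold copy of SIM was closest to the A01 copies of AT3G11780 (0.0267) and AT3G05170 (0.0612) and to a C07 copy of AT5G44390 (0.0918). The C05 copy of SMR1 was closest to BnaC09g005310.4DH, a copy of the CDK inhibitor gene KRP3 (0.0960), then to a copy of the F-box gene AT1G78100 (0.10) and to one of the chloroplast gene PETA (0.102). That KRP3 copy was listed at 0 in both hairy leaves and had 3.70 and 3.44 TPM in glabrous leaves.

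The rest of the pathway was read from 6 lists with 174 copies in all, of which 109 were tested. Of these, 4 were called higher and 4 lower, where 5.24% and 4.48% of all tested genes were so called. Among the called copies, all but those of OSD1 and CYCA2;3 passed the filter through 1 line only. These counts therefore carry no weight of their own. The median difference over the 109 copies was -0.03, beside 0.03 for all genes. Without either hairy leaf none of the 8 calls remained, without glabrous replicate 1 there were 0 higher and 2 lower, and without glabrous replicate 3 there were 1 higher and 4 lower. No total by Arabidopsis gene was called in any list by limma, and 2 had an unadjusted p under 0.05, OSD1 and CYCA2;1, named here after their values were seen.

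Among the CDK inhibitors, the other SIM-related genes had a copy for 6 of 7 and 3 of 23 copies tested, with none called. The other KRP genes had 16 tested copies, of which only the C09 copy of KRP3 above was called, lower (limma adjusted p = 0.0034), and a median difference of 0.34. The KRP3 total overlapped between the lines, at 22.9 and 26.3 TPM in hairy and 20.8 and 27.4 TPM in glabrous leaves.

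Of 17 tested copies of APC/C activators and inhibitors, 2 were higher and 1 lower (median -0.40). The higher ones were BnaC04g021450.4DH and BnaC04g021320.4DH, copies of CDC20.1, the mitotic APC/C activator, at 2.38 and 1.73 TPM against 0 and 0, and at 3.22 and 1.17 TPM against 0 and 0.147 TPM. They were a small part of CDC20.1, whose 29 copies totalled 341 and 158 TPM in hairy and 297 and 320 TPM in glabrous leaves, overlapping. The lower one was BnaS00068g0170.4DH, a copy of the APC/C inhibitor gene OSD1, at 13.4 and 8.12 TPM in hairy and 40.1 and 32.8 TPM in glabrous leaves (difference -1.70, SE 0.40, limma adjusted p = 0.0163). The OSD1 total was 42.3 and 31.2 TPM in hairy and 70.2 and 61.4 TPM in glabrous leaves, without overlap, and was not called. CCS52B, the remaining CCS52 gene, totalled 119 and 67.9 TPM in hairy and 120 and 151 TPM in glabrous leaves and was not called.

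Of 26 tested E2F and DP copies, only the scaffold copy of DPB was called (median 0.02), and none of the 8 topoisomerase VI copies was (median 0.18). The DPB total overlapped between the lines, at 55.9 and 47.6 TPM in hairy and 44.2 and 62.7 TPM in glabrous leaves. Among 39 copies of CDK and cyclin partners, 1 was higher and 2 lower (median -0.07). CYCA2;4, an A-type cyclin, had copies called both ways: BnaA07g052030.4DH at 8.90 and 3.62 TPM in hairy and 0.301 and 0.662 TPM in glabrous leaves, and BnaS00007g0210.4DH at 0.0535 and 0 TPM against 4.09 and 6.34 TPM. Its total was 56.6 and 35.5 TPM against 33.0 and 60.6 TPM, overlapping. The other lower copy, BnaA06g012640.4DH of CYCA2;3, a cyclin that restrains the endocycle in Arabidopsis, had 29.5 and 15.5 TPM against 44.9 and 105 TPM (difference -1.64, SE 0.47, limma adjusted p = 0.0458). The CYCA2;3 total overlapped, at 124 and 73.3 TPM against 113 and 225 TPM.

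The neighbours of the 8 called pathway copies were counted in the same way, after the calls had been seen. For KRP3 on C09 19 of 20 were called lower, for CYCA2;4 on its scaffold 16 of 17 lower, and for DPB 19 of 20 higher. For the other 5 copies, 1 to 3 of 12 to 20 neighbours were called. The line through which these neighbours passed the filter was not counted, so the counts carry no weight of their own. DPB lies on the scaffold of the called SIM copy, and its neighbours are in part those already counted for SIM.

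**Figure D5:**
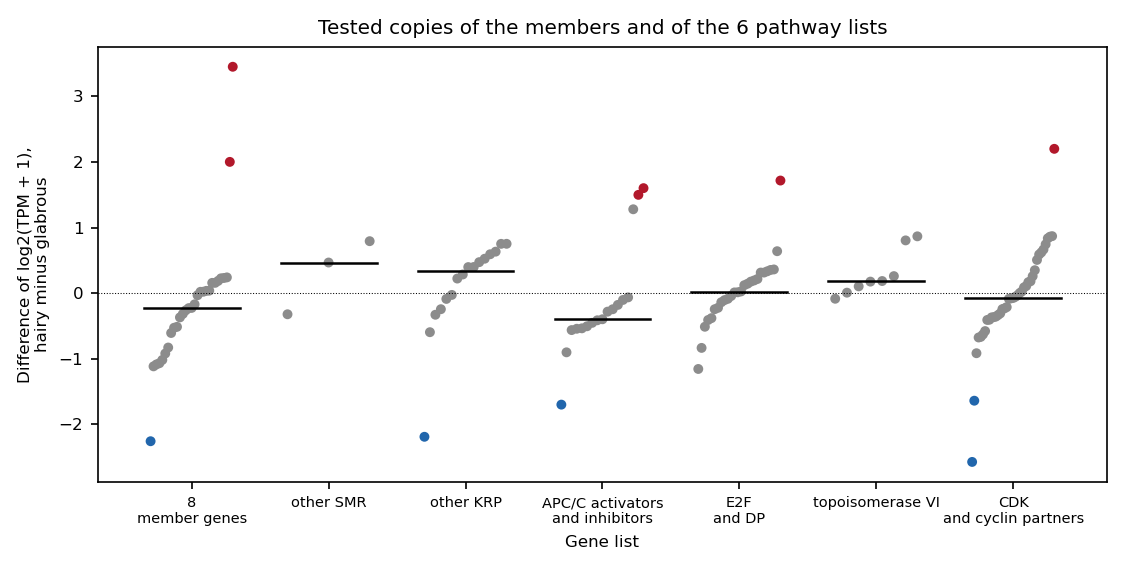
Difference of log2(TPM + 1), hairy minus glabrous, of the tested copies of the 8 genes and of the 6 pathway lists, in rising order within a list; red and blue points are called higher and lower, grey points are not called, and bars are medians. Medians lie between -0.40 and 0.47, and each called copy lies beyond the grey points of its list.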

How the data were processed

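RNA of very young leaves of a hairy and a glabrous Brassica napus line was compared, 2 leaves per line. Per the submitters' processing notes reads were handled with cutadapt 1.9, and column names follow CLC software. Which aligner, annotation and genome build were used is not given in the sources used here. For each transcript model and leaf the authors deposited TPM, for 185771 models, and mean TPM per line. They also deposited the larger group mean as a signal on the TPM scale, a signed fold change as a score, a log2 fold change and a p-value with its false discovery rate, whose test is not stated. TPM hold no counts, so depth is unknown and the count test and DESeq2 alternative could not be used; precision rests on 2 leaves per line, and whether replicates came from separate sowings is not stated, so p-values measure the spread between these leaves.

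TPM were summed per gene, or per Arabidopsis code (15754 tested totals). Features with at least 1 TPM in at least 2 leaves were tested with limma 3.58.1 (R 4.3.3) on log2(TPM + 1), with variance trend, robust shrinkage and Benjamini-Hochberg adjustment. The same steps were tested on simulated data. A difference on this scale understates changes of low copies. Python 3.11.15, pandas 2.3.3 and scipy 1.17.1 were used. A RefSeq gene table of the Da-Ae assembly, matched by the accession of the deposited top hit, gave a name to 26 of the 42 copies and was used for nothing else.

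The members and lists were chosen with earlier results of these data known. Named were all tested copies, at most 3 called copies per pathway list, and 3 similar genes and 10 tested neighbours per side for each called copy; totals of pathway genes, and items the text says so of, were chosen after the values were seen. Alternatives left out each leaf, added a replicate block, changed scaling, pseudocount, filter and variance prior, or fitted transcripts. With a leaf left out, the filter asked for 1 TPM in at least 1 leaf, so more genes were tested.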

Additional observations from a re-analysis of the deposited data

How the results depend on the processing

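For the 8 genes, 2 copies were called higher and 1 lower, and these counts held under both other scalings, pseudocounts of 0.1 and 0.5, both other filters, limma without trend and robust shrinkage, and the replicate block (2 higher, 1 lower). Without 1 leaf the counts ran from 1 to 2 higher and from 0 to 1 lower, with 1 leaf of a line then assumed to vary like the others, and the fit per transcript gave 1 higher and 0 lower. No total was called under any alternative. The pathway lists gave 0 to 1 higher and 0 to 4 lower without 1 leaf; the scalings, the filter and the replicate block gave 4 to 5 higher and 3 to 4 lower.

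The direction of 5 uncalled totals changed without 1 leaf: SMR1 (0.38 without hairy replicate 1), CCS52A1 (0.54 without glabrous replicate 3, 0.20 without hairy replicate 3), CCS52A2 (0.10 without hairy replicate 3), KRP2 (0.073 without glabrous replicate 3) and RBR1 (0.26 without either of these 2 leaves). Their lowest differences without 1 leaf were -1.63, -1.003, -0.57, -1.04 and -0.73. The totals of SIM (-0.79 to -0.24), KRP1 (-1.40 to -0.23) and RHL1 (0.029 to 0.18) kept their direction. Leaving out a leaf moved the median difference of all genes to between -0.17 and 0.24. Without 1 leaf the difference in A share, hairy minus glabrous, ran from -5.87 to 33.6 percentage points for KRP1 and from -1.07 to 7.24 for RHL1. The cause was not tested. The median of the other SIM-related genes ran from -0.89 to 0.47, over 3 tested copies in the main fit and up to 13 in the alternatives. The copies behind it thus differed between settings.

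Same-numbered leaves deviated from their line means with a correlation of -0.407, so the numbers are not taken to pair the leaves. A block with crossed numbers, added after seeing the data, gave 2 higher and 2 lower copies. The copy it added was the C01 copy of RBR1. Over all genes this block gave 3921 calls higher and 3039 lower, where the main fit gave 2319 and 1982. The DESeq2 alternative was not run, since the table holds no counts.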
